A study of Mus musculus with 3 samples.

Results

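The genes Otx2, Pou3f1, Foxd3, Slc7a3 and Sall4 are used as markers of the primed epiblast, and they were followed here in mouse embryoid bodies with and without a C-terminal truncation of Dido3. They were taken as all non-control spots whose gene name in the scanner files equals one of these 5 symbols, which gave 8 probes out of 39429 on the array and 5 genes out of the 15428 that could be tested. Mutant embryoid bodies (labelled Dido3deltaCT mutant) were set against wild type embryoid bodies (labelled wildtype control). An embryoid body is a floating ball of embryonic stem cells in which cells of all germ layers arise. All samples of both genotypes had been kept for 10 days in low attachment plates without the self-renewal factor LIF, and nothing else distinguishes the groups in the labels. There were 3 mutant and 3 wild type samples, called biological replicates, on 3 two-colour arrays that each held 1 sample of either genotype. The mutant sample was labelled with Cy5 on replicate 2 and with Cy3 on replicates 1 and 3, so each mean ratio keeps part of any dye effect. Whether the samples of a genotype come from separate lines or from repeat cultures of 1 clone is not given in the labels, and if they are repeat cultures the p-values describe the spread among those cultures alone.

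When the inner cell mass of the blastocyst becomes the epiblast of the implanting embryo, pluripotent cells leave a naive state and enter a formative and then a primed state before the germ layers form. Otx2, a homeodomain factor, helps to drive that step and later patterns the anterior neuroectoderm and the head. Pou3f1 (also called Oct6), a POU factor, is switched on in the epiblast and is used again in neural progenitors and glia. Foxd3, a forkhead factor, is needed to maintain the epiblast and is later a factor of the neural crest. Slc7a3, also called CAT3, imports cationic amino acids such as arginine and lysine. Sall4, a zinc finger factor that works with Oct4, is found in both naive and primed cells and in germ cells, so it does not mark the primed state alone. How well the other 4 genes separate naive from primed cells was not tested here.

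The values rest on few oligonucleotides: Otx2 had 2 probes, Sall4 had 3, and Pou3f1, Foxd3 and Slc7a3 had 1 each. Each probe has 60 bases and was spotted once. The first 30 bases of each are given 5′ to 3′ because Otx2 and Sall4 had more than 1 probe and the ratio of Sall4 differed between its probes. Capitals mark GGATTA, the reverse complement of the core TAATCC that Otx-type homeodomains are known to bind.
Slc7a3, mm9 chrX:98274644-98274703, minus strand: ggatatgaaataatgctctgtatttcttgt
Foxd3, mm9 chr4:99325170-99325229, plus strand: ctctgcgcagttttatctgagaaaaagaat
Pou3f1, mm9 chr4:124337692-124337751, plus strand: ggagcttcccccttcaccatttcttcatct
Otx2, used probe, mm9 chr14:49277855-49277914, minus strand: tttcagggctgtgtggattgtgcgactgat
Otx2, other probe, mm9 chr14:49284952-49285011, minus strand: gggacgtgtgcccctcGGATTAtctcgtta
Sall4, used probe, mm9 chr2:168574333-168574392, minus strand: tgcgaccacccaagtattgccaggtcttaa
Sall4, middle probe, mm9 chr2:168578172-168578231, minus strand: gcctccctccaacatttatccgagcacagc
Sall4, 5′-most probe, mm9 chr2:168580437-168580496, minus strand: attcaccaacgccgtcatgttacagcagca
The scanner files annotate 7 of the 8 probes to the RefSeq mRNA of their gene and the other Otx2 probe to an Ensembl transcript, without saying which exon or UTR a probe lies in.

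The 2 Otx2 probes lie 7097 bases apart on the minus strand of mm9, and the other probe is the upstream one. Its full sequence was found in RefSeq's table of promoter windows (GRCm38.p6), where Otx2 spans chr14:48656781-48667644 and has 4 listed start sites. It lies between 227 and 168 bases before one of the internal starts, at chr14:48665277-48665336. The 250 bases before that start are printed, with the probe in capitals, because this probe matches sequence upstream of that start, whereas the used probe lies downstream of it.
Otx2, GRCm38.p6 chr14:48665110-48665359, minus strand: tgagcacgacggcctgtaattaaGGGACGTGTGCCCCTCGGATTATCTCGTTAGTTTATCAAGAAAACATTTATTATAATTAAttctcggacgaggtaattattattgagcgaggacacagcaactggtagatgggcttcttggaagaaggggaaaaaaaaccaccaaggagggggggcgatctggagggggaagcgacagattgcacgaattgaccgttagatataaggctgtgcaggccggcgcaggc
The only TAATCC or GGATTA in these 250 bases is the 1 inside the probe. The motif, searched on both strands over the 250 bases before the start, is in 6.25% of all 32851 windows of the table. Of the 5 genes, Otx2 (4 windows) and Foxd3 (1 window) have entries, and the other 4 of these 5 windows have no match.

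Slc7a3 rose in the mutant, and Foxd3 and Pou3f1 had ratios of similar size that missed the threshold narrowly. Otx2 and Sall4 had ratios of about 0.4 with intervals that included 0. In the fit over all genes 1 of the 5 genes passed, higher in the mutant, at a limma adjusted p under 0.05, while 0.298% of the 15428 tested genes passed in either direction, 0.207% higher and 0.0907% lower in the mutant. The median log2 ratio of mutant over wild type was 2.25 over the 5 genes and 0.03 over all tested genes, and all 5 genes had a ratio above 0 on every array, as 21.7% of all tested genes did, while 22.7% were below 0 on every array and 0 of the 5 genes were. The genes were taken up with earlier results of these arrays known, so these counts are a description. RNA of whole embryoid bodies cannot tell a larger share of cells of a type from more RNA per cell.

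The arrays did not deviate alike. Over the tested genes, which are not independent replicates, replicates 1 and 3 had ratios with r = 0.88, and replicate 2 correlated with them at r = 0.15 (replicate 1) and r = 0.18 (replicate 3), so each of the 5 genes is also given without replicate 2, and a listed gene or list where that moves its value by over 1.5 times in fold. Replicate 2 alone had the mutant in Cy5, so a deviating replicate and a dye effect cannot be told apart. Values without replicate 2 come from arrays of the same dye orientation. The share of probes well above background was 46.5% to 62.5% for mutant samples and 48.5% to 74.4% for wild type samples, and the number of arrays limits the precision. As a check of the tissue, 5 of 5 endoderm markers, 5 of 6 mesoderm markers and 3 of 5 ectoderm markers were tested and were well above background on all wild type arrays. Mesp1, Pax6 and Neurog2 were too dim to test. The median ratios were −2.51 for the endoderm, −0.61 for the mesoderm and −0.90 for the ectoderm markers (−1.64 without replicate 2), and all 5 endoderm markers were below 0 on every array, among them Sox7 at −2.51 and Gata6 at −2.80 (limma adjusted p = 0.0502 and 0.0559). Of these markers Hbb-bh1, an embryonic globin, was the 1 that passed the test, lower in the mutant by a log2 ratio of −3.91 ± 0.34 (SE, limma adjusted p = 0.0417).

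Slc7a3 had normalised log2 intensities of 13.98, 12.85 and 14.00 in the mutant samples of replicates 1, 2 and 3, against 11.30, 10.43 and 11.29 in the wild type samples. Every mutant sample was above every wild type sample, and the replicate 2 samples were the lowest of either genotype. The log2 ratios of mutant over wild type were 2.68, 2.43 and 2.71, a range of 0.29 over arrays of both dye orientations. The mean was 2.61 ± 0.24 (SE of the limma fit, 95% interval 2.00 to 3.21, adjusted p = 0.0432), a 6.09-fold higher level of this transporter's transcript in the mutant. There were 70 tested genes with a larger ratio. Without replicate 2 the ratio was 2.70 (limma adjusted p = 0.00116), without replicate 1 it was 2.57 (adjusted p = 0.145) and without replicate 3 it was 2.55 (adjusted p = 0.114). The fit without replicate 2 called 25.7% of all tested genes higher in the mutant, which is the background of the call there. The call also depends on the background model: with 7 spots of extreme local background on replicate 3 kept in the model the ratio was 2.43 (limma adjusted p = 0.154), and in the authors' deposited table it was 2.46 (limma adjusted p = 0.119), and in both cases 0 of all tested genes passed (1684 and 3057 at an unadjusted p under 0.05).

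Foxd3 had the largest ratio of the 5. Its log2 intensities were 10.89, 9.12 and 11.05 in the mutant samples, against 7.46, 6.98 and 7.60 in the wild type samples. The groups did not overlap, the mutant sample of replicate 2 was the lowest of its genotype, and the probe was well above background on 3 mutant and 2 wild type arrays. The wild type sample of replicate 2 was the dim one, so Foxd3 passed the filter on dim probes through the mutant samples and its ratio on that array rests on a signal near background. The ratios were 3.43, 2.14 and 3.45, with a mean of 3.01 ± 0.36 (SE, limma 95% interval 2.09 to 3.92, adjusted p = 0.0508), an 8.03-fold higher mean that did not pass the threshold. Without replicate 2 the ratio was 3.44 (limma adjusted p = 0.000876) and with a dye term it was 2.79 (limma adjusted p = 0.00193), and both fits take their error from replicates 1 and 3 alone. In those fits 25.7% and 15.9% of all tested genes were called higher in the mutant, which is the background of a call there. In the model that kept the extreme spots its ratio was 2.02 (limma adjusted p = 0.375), and in the authors' deposited table it was 2.30 (limma adjusted p = 0.123).

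Pou3f1 had log2 intensities of 12.08, 10.43 and 11.11 in the mutant samples, against 9.65, 8.22 and 9.004 in the wild type samples. The groups did not overlap, with 10.43 as the lowest mutant and 9.65 as the highest wild type value, and replicate 2 was again the lowest of either genotype. The ratios of 2.43, 2.21 and 2.11 differed by 0.32, against a mean of 2.25 ± 0.24 (SE, limma 95% interval 1.64 to 2.86), a 4.75-fold higher mean. The adjusted p was 0.0502 over genes and 0.0478 over all probes that passed the filter (limma), so it passed over probes and missed the threshold over genes. Without replicate 2 the ratio was 2.27 (limma adjusted p = 0.00161), in a fit that called 25.7% of all tested genes higher in the mutant. In the authors' deposited table the ratio of Pou3f1 was 1.60 (limma adjusted p = 0.119). Channel signals that did not overlap, with the mutant higher, were found for 3 of the 5 genes and for 11% of all tested genes.

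**Figure D1:**
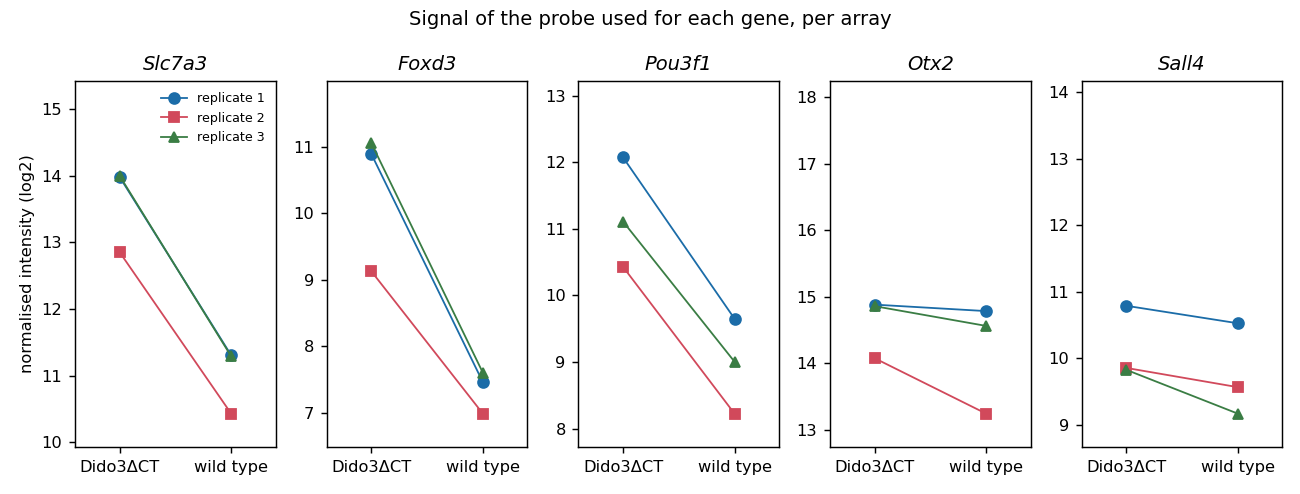
Normalised log2 intensity (y axis, own range but equal span in each panel) of the probe used for each gene in the mutant (left) and wild type (right) sample of each array, with a line joining the 2 samples of an array. The lines fall steeply for Slc7a3, Foxd3 and Pou3f1, whose groups do not overlap. They fall by 0.83 or less for Otx2 and Sall4, whose groups overlap.

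Otx2 was read well above background in every sample, with log2 intensities of 14.88, 14.08 and 14.86 in the mutant samples, against 14.79, 13.24 and 14.56 in the wild type samples. No spot was marked as saturated (0 in either genotype), and the genotypes overlapped. The ratios were 0.10, 0.83 and 0.30, so the array with the exchanged dyes had the largest. Their mean was 0.41 ± 0.27 (SE, limma adjusted p = 0.425), and the 95% interval of −0.28 to 1.10 allows anything from a 0.82-fold to a 2.14-fold level. The ratio was 0.20 without replicate 2 and 0.51 with a dye term (limma adjusted p = 0.408 and 0.0609). The upstream probe, printed in capitals in the window, had 7.71, 7.79 and 7.66 in the mutant samples and 7.43, 7.35 and 7.47 in the wild type samples. This probe was far dimmer than the used one. Its mutant samples were all above its wild type samples, as they were for 11% of all tested genes. The ratios were 0.28, 0.44 and 0.19, with a mean of 0.31 ± 0.13 (SD, n = 3; limma adjusted p = 0.502 over all probes). The ratio of the used probe minus that of the upstream probe was −0.18, 0.39 and 0.11 on the 3 arrays, so the probes did not differ in a constant direction.

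Of the 3 probes of Sall4, 1 was well above background on every array. This probe, nearest the 3′ end and used for the gene, had log2 intensities of 10.79, 9.85 and 9.82 in the mutant samples, against 10.53, 9.56 and 9.17 in the wild type samples, and the groups overlapped. Its ratios were 0.26, 0.29 and 0.66, with a mean of 0.40 ± 0.24 (SE, limma 95% interval −0.22 to 1.03, adjusted p = 0.389). The middle probe was well above background on 2 arrays of each genotype and had ratios of −0.26, 0.24 and −0.26. The 5′-most probe stood well above background on 0 arrays of either genotype, and no ratio is given for it. With the mean over the 3 probes, the dim ones included, the ratio of Sall4 was 0.11 (limma adjusted p = 0.789). Without replicate 2 the used probe gave 0.46 (limma adjusted p = 0.108).

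**Figure D2:**
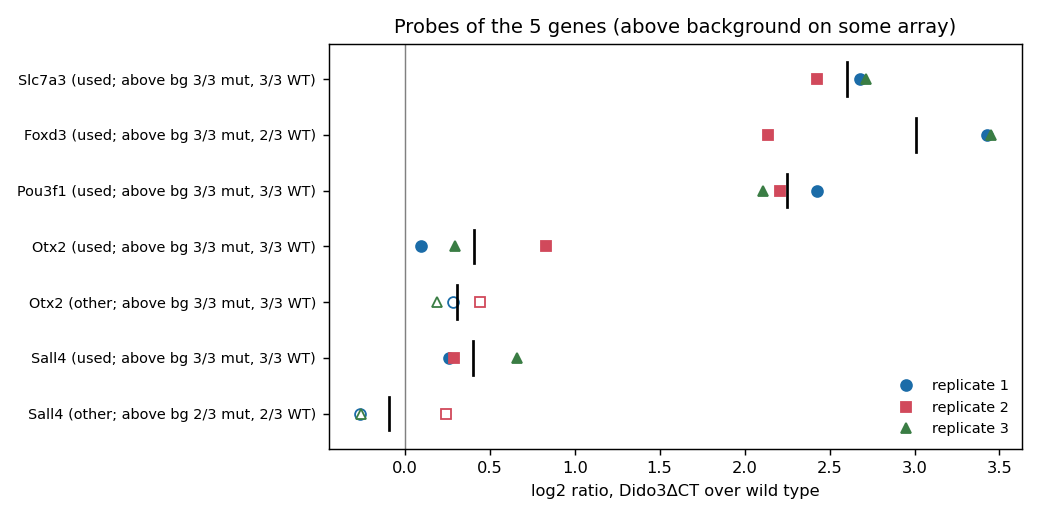
Log2 ratio of mutant over wild type (x axis) on each of the 3 arrays for 7 of the 8 probes, with a bar at the mean, filled symbols for the probe used for a gene and open symbols for the others. The probes of Slc7a3, Foxd3 and Pou3f1 lie between 2.11 and 3.45, and those of Otx2 and Sall4 between −0.26 and 0.83; the 5′-most Sall4 probe, too dim in both genotypes, is not plotted.

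The ratios left a gap on every array, since the lowest ratio of Slc7a3, Foxd3 and Pou3f1 was 2.11 and the highest of Otx2 and Sall4 was 0.83. Median centring of the arrays in place of loess moved the median of all genes by more than 0.1, to −0.22, and relative to that median Slc7a3 had a ratio of 2.51, Foxd3 2.91, Pou3f1 2.12, Otx2 0.37 and Sall4 0.27. Over all 14 alternatives the ratio of Slc7a3 ran from 2.29 to 2.70, that of Pou3f1 from 1.60 to 2.43, that of Otx2 from 0.15 to 0.56 and that of Sall4 from 0.05 to 0.47, and over 13 alternatives that of Foxd3 ran from 2.02 to 3.77.

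**Figure D3:**
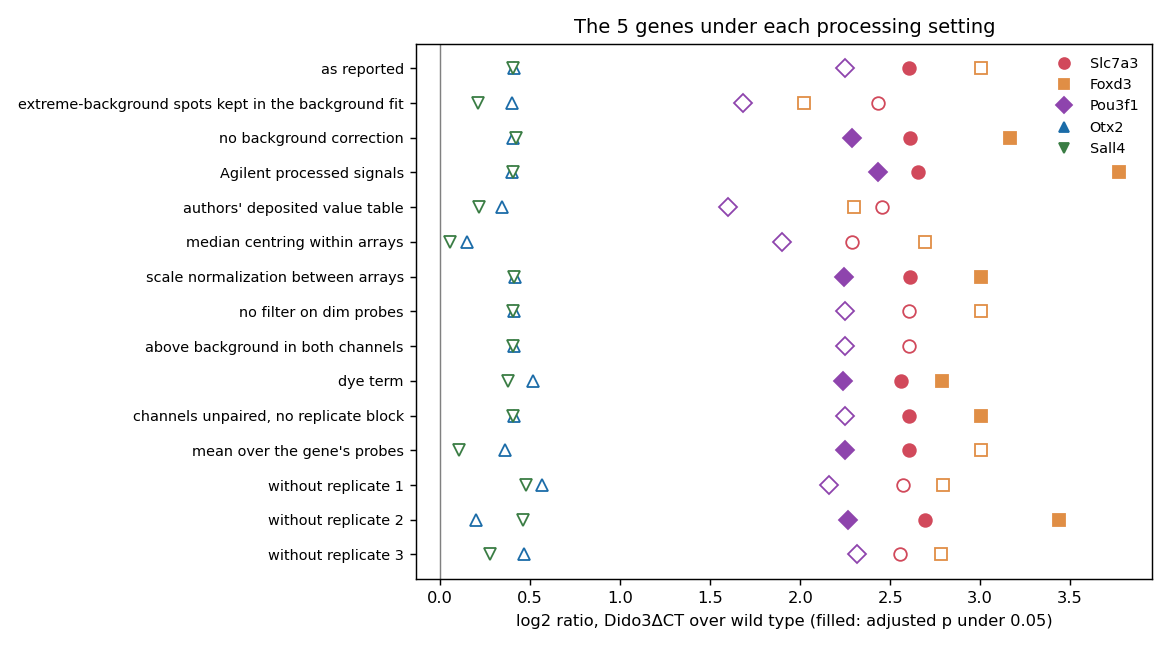
Log2 ratio of mutant over wild type (x axis) of the 5 genes under the reported setting and each alternative (rows), filled where the limma adjusted p was under 0.05. All values lie above 0. Slc7a3, Foxd3 and Pou3f1 lie at 1.60 or above and Otx2 and Sall4 at 0.56 or below in every row; Foxd3 has no value with both channels above background.

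Close relatives of the 5 genes were measured beside them, and 7 could be tested. Of the relatives of Slc7a3, Slc7a1, the general carrier of most cell types, had a ratio of −1.02 ± 0.25 (SE, limma adjusted p = 0.108). Slc7a4 had 0.35 ± 0.24 (limma adjusted p = 0.430), while Slc7a2 was too dim to test. Slc7a4 was well above background on 2 wild type arrays, so it passed the filter through the mutant samples. The ratio of Slc7a3 minus that of Slc7a1 was 3.97, 3.18 and 3.72 on the 3 arrays. Of the forkhead genes Foxd1 had −1.60 ± 0.28 (SE, limma adjusted p = 0.0657) and Foxd2 −0.83 ± 0.29 (limma adjusted p = 0.183), with 1 and 2 mutant arrays well above background. The ratio of Foxd3 minus that of Foxd1 was 5.26, 3.24 and 5.32, and on replicates 2 and 3 this difference rests in part on signals near background. Foxd1 and Foxd2 passed the filter on dim probes through the wild type samples and Foxd3 through the mutant samples. The filter thus favoured a positive difference for both pairs, and its sign is given as a description alone. Pou3f4, the POU relative that could be tested, had ratios of 1.83, 0.14 and 0.03 (limma adjusted p = 0.416), and Pou3f2 and Pou3f3 were too dim. Pou3f4 was well above background on 2 mutant arrays, so it passed the filter through the wild type samples. Its ratio on replicate 3 rests on a mutant signal near background. Sall1 had 0.90 ± 0.35 and Sall2 −0.74 ± 0.30 (SE, limma adjusted p = 0.219 and 0.231), and the difference of Sall4 from Sall1 changed sign between arrays. Sall2 is also on the list of epiblast genes and Sall1 on that of core pluripotency genes. Neither of the Otx relatives Otx1 and Crx was well above background on any array. An exact sign-flip test of the 7 differences (two-sided, n = 3 arrays) gave p = 0.25 for each pair but Sall4 and Sall1 (exact p = 0.5), and 0.25 is the smallest p that 3 arrays allow (0.292 after Benjamini-Hochberg adjustment over the 7).

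Of 26 further genes of the primed and formative epiblast 25 could be tested, and 0 passed in either direction (limma). At an unadjusted p under 0.05, 9 of the 25 were higher and 4 lower in the mutant, against 11.4% and 11.3% of all tested genes. Of the 25, 11 had ratios above 0 on all 3 arrays, 5 below 0, and 9 were mixed. The list's median ratio was 0.33, against 0.03 over all tested genes, with array medians of 0.16, 0.78 and 0.22. Utf1, a chromatin factor of pluripotent cells, had 2.33 ± 0.28 and Nodal, the ligand that maintains the epiblast, 1.93 ± 0.25 (SE, limma adjusted p = 0.0505 and 0.0543). Fst, an antagonist of activins, had −2.22 ± 0.26 and Sox11, a factor of neural progenitors, −2.12 ± 0.30 (SE, limma adjusted p = 0.0505 and 0.0559). Fgf5, a widely used marker of the primed epiblast that is named here after its values were seen, had ratios of 1.90, 1.01 and 2.65 (limma adjusted p = 0.0780). Channel signals did not overlap for 9 of the 25 with the mutant higher and for 1 with the mutant lower, against 11% and 10.3% of all tested genes. Without replicate 2, 12 of the 25 were called higher and 7 lower, in a fit that called 7305 of all tested genes. The summed linear intensity of the 25 genes ran from 149000 to 233000 in the mutant samples and from 75500 to 183000 in the wild type samples, so the groups overlapped.

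**Figure D4:**
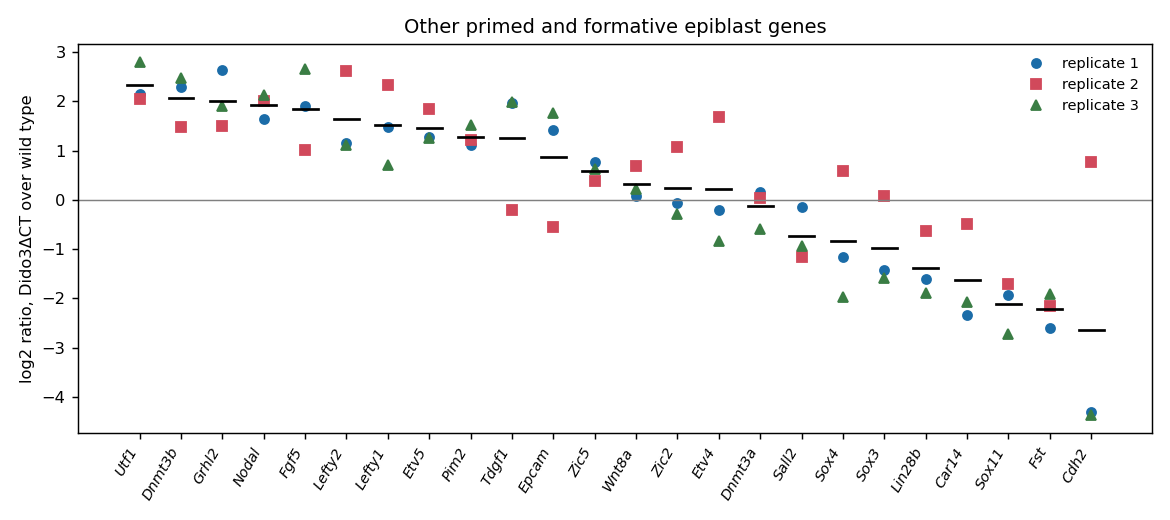
Log2 ratio of mutant over wild type (y axis) of 24 of the 25 other primed and formative epiblast genes on each array, ordered by their mean (bar). Utf1 has the highest mean at 2.33 and Cdh2 the lowest at −2.63, and for Cdh2 replicate 2 lies on the other side of 0 from replicates 1 and 3.

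The naive and core pluripotency genes, which neighbour the primed state, were listed for comparison. Of 13 naive genes 2 rose, 0 fell and 11 did not pass, against 0.207% of all tested genes called higher and 0.0907% lower. At an unadjusted p under 0.05, 11 were higher and 1 lower, against 11.4% and 11.3% of all tested genes. The median was 2.42, close to the 2.25 of the 5 genes. The lower gene was Klf4, with −1.14 and below 0 on every array (limma adjusted p = 0.122). Zfp42 (Rex1), a naive-state marker, rose by 3.17 ± 0.26 and Nr0b1 (Dax1), an orphan nuclear receptor of the naive network, by 3.92 ± 0.34 (SE, limma adjusted p = 0.0417 for both). Esrrb and Tcl1 had 2.80 ± 0.32 and 2.77 ± 0.33 (SE, limma adjusted p = 0.0502 and 0.0526). Of 9 core pluripotency genes 1 rose, Dppa5a, by 2.67 ± 0.24 (SE, limma adjusted p = 0.0417), 0 fell and 8 did not pass, with a median of 1.05. At an unadjusted p under 0.05, 6 of the 9 were higher and 0 lower, beside the same shares of all tested genes. Nanog had the lowest ratio of the 9, 0.08, with a sign that differed between arrays. Pou5f1, the gene of Oct4, had 1.99 ± 0.28, Dppa4 2.17 ± 0.29 and Sox2 1.05 ± 0.25 (SE, limma adjusted p = 0.0559, 0.0543 and 0.101). The summed linear intensity of the naive genes ran from 81500 to 159000 in the mutant samples and from 24000 to 43200 in the wild type samples. The sums of mutant and wild type did not overlap, and the 5 genes were not tested against the naive genes.

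Otx2, Pou3f1, Foxd3 and Sall4 are also used outside the epiblast, and markers of those cell types were measured beside them. Of 12 anterior neuroectoderm genes, where Otx2 and Pou3f1 are used, 8 could be tested, 0 passed (limma; 6 of the 8 lower at an unadjusted p under 0.05, against 11.3% of all tested genes) and 6 were below 0 on all 3 arrays. Their median was −3.01, with array medians of −3.60, −1.24 and −3.78, and −3.69 without replicate 2. Six3, Rax, Sox1 and Lhx5 had −2.92, −1.75, −4.04 and −3.11 (limma adjusted p = 0.0542, 0.0580, 0.0625 and 0.0799). Six3 and Lhx5 were well above background on 1 mutant array and Rax on 2, so they passed the filter through the wild type samples and their ratios rest in part on signals near background. Without replicate 2 Sox1 had −5.05 and Lhx5 −4.06. The mutant signal of Lhx5 was not well above background on replicate 1 or 3, so its value there rests on dim mutant signals. The list's summed linear intensity ran from 1980 to 2420 in the mutant samples and from 5520 to 73900 in the wild type samples, and Otx1 stood well above background on 0 arrays. Of 10 neural crest genes, where Foxd3 is used, 7 could be tested, 0 passed (limma; 5 of the 7 lower at an unadjusted p under 0.05, against 11.3% of all tested genes) and 5 were below 0 on every array, with a median of −1.67. Snai2, Sox9, Tfap2a and Pax3 had −1.67, −1.87, −1.73 and −2.03 (limma adjusted p = 0.0563, 0.0597, 0.0716 and 0.0719), with Sox9 and Pax3 well above background on 2 of 3 mutant arrays, so that both passed the filter through the wild type samples. Ngfr and Twist1 had 0.85 and 0.10, with signs that differed between arrays (limma adjusted p = 0.384 and 0.905). Without replicate 2 Ngfr had 0.16. The summed intensity of the neural crest genes ran from 2200 to 2580 in the mutant samples and from 5760 to 6560 in the wild type samples. Sox10, the defining factor of the crest, was too dim to test, being well above background on 0 mutant and 2 wild type arrays.

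Of 9 germ cell genes, where Sall4 is used, 0 passed (limma; 5 of the 9 higher and 1 lower at an unadjusted p under 0.05, against 11.4% and 11.3% of all tested genes), 6 were above 0 and 1 below 0 on every array, with a median of 1.32. Ddx4, Mael and Tfap2c had 2.02, 3.07 and 1.32 (limma adjusted p = 0.0860, 0.0997 and 0.0764), and the receptor gene Kit −1.92 (adjusted p = 0.0698). The ratios of Mael were 3.75, 0.95 and 4.53 on the 3 arrays, and 4.14 without replicate 2, and those of Ddx4 were 2.83, 0.88 and 2.36. The summed intensity of the germ cell genes ran from 15600 to 32400 in the mutant samples and from 6820 to 13400 in the wild type samples. Of 10 visceral endoderm genes, where Otx2 is used, 0 passed (limma; 5 of the 10 lower at an unadjusted p under 0.05, against 11.3% of all tested genes), 1 was above 0 and 6 below 0 on every array, with a median of −1.03. Afp, Cubn, Apob and Ttr had −2.23, −1.81, −1.66 and −1.93 (limma adjusted p = 0.0502, 0.0543, 0.0559 and 0.0574). Cer1, Hhex and Lhx1 had mean ratios above 0, at 0.51, 0.57 and 0.14 (limma adjusted p = 0.328, 0.644 and 0.807). Cer1 was above 0 on every array, while the signs of Hhex and Lhx1 differed between arrays. Without replicate 2 Hhex had 1.53. The summed intensity of the visceral endoderm genes ran from 13300 to 48600 in the mutant samples and from 38700 to 172000 in the wild type samples. The part of these cell types in the ratios of the 5 genes was not tested.

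**Figure D5:**
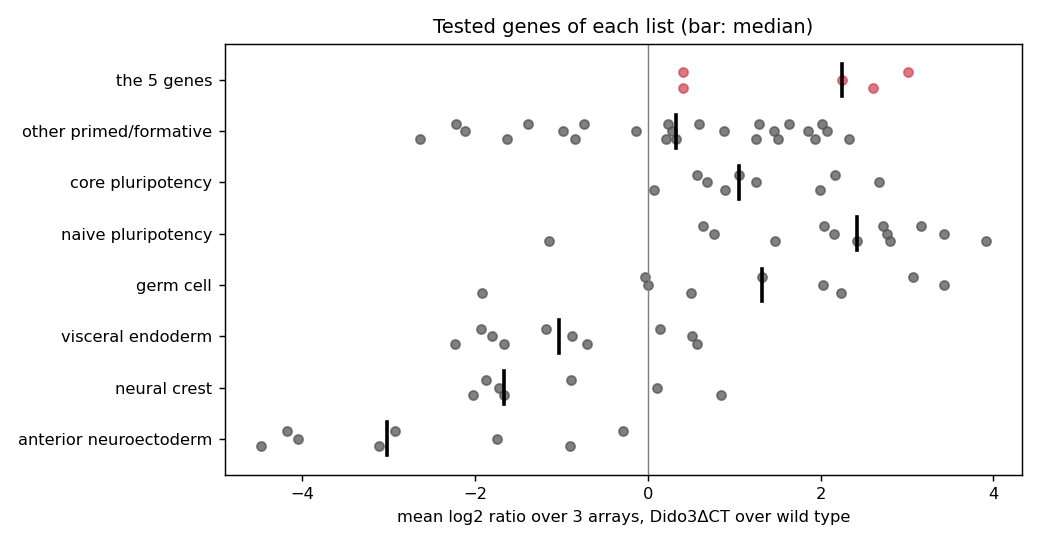
Mean log2 ratio of mutant over wild type over 3 arrays (x axis) of each tested gene of the lists (rows), with a bar at the median of the list. The 5 genes have a median of 2.25, the naive genes 2.42 and the other primed and formative genes 0.33, and the anterior neuroectoderm genes lie lowest with −3.01.

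The genes whose ratios lay closest to each of the 5, by Euclidean distance over the 3 arrays, were read from all 15428 tested genes. Closest to Slc7a3 were Mcf2 (distance 0.18), Dppa5a (0.33) and Syce1 (0.39). Closest to Foxd3 were Lrrc34 (0.11), Zfp459 (0.39) and Rbmxl2 (0.43), and closest to Pou3f1 were Syk (0.13), Map7d3 (0.20) and a transcript with no gene symbol (0.25). Otx2 and Sall4 had nearer neighbours, Psmd5 (0.09) and Slc7a8 (0.09) beside an unnamed transcript (0.04) for Otx2, and Uox (0.05), Dhx37 (0.05) and Zfp106 (0.06) for Sall4, in the part of the distribution where 28.3% and 28.4% of tested genes had a larger ratio than Otx2 and Sall4. Dppa5a is repeated from the core pluripotency list, where it passed the test. Whether the other neighbours passed is not given here, so Dppa5a is not set apart from them.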

How the data were processed

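Each scanner file, deposited by the authors, holds 1 two-colour array. Per the file headers, Agilent Feature Extraction (10.7.3.1) wrote it, with unnormalized mean and local background intensity for each dye, a processed intensity with background subtracted and dyes normalized, other columns that flag spots, and mm9 probe positions. The table of values deposited by the authors is in log2 ratios, for which the submitters' processing notes name limma without settings. Compared with the scanner intensities, it runs mutant over wild type (medians −0.04, 0.01 and −0.01; centring unknown), and its columns labelled replicates 1 and 3 correlated best with the scanner files of replicates 3 and 1 (r = 0.916 and 0.983), which leaves the mean ratio as it is.

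With R 4.3.3 and limma 3.58.1, intensities were corrected by normexp (offset 50) and loess within arrays, control spots (1377) at weight 0. On replicate 3, 7 background-flagged spots above 10 times the median background took that median in the model and were left out, as were outlier spots; this choice decides whether any gene passes. Probes measured on all 3 arrays and well above background on all 3 in at least 1 genotype were kept (19142), and the brightest per gene was used. The mean ratio of each gene was tested for a difference from 0 in limma's lmFit and eBayes (two-sided, Benjamini-Hochberg, threshold 0.05; 2 residual and 3.04 prior degrees of freedom). Per-sample intensities are after loess and Aquantile scaling. The fit was run on simulated ratios with a smaller spread than the real genes and large planted changes. That run checked the code, and not how well changes in these data are found. Of the probes 67.9% had an accession in the GRCm38.p6 table, used for symbols. The arrays share 1 slide and 1 scan date, which leaves no such batch to compare.

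The ratio pairs the samples of an array. The 5 genes and all 15 lists were chosen with earlier results of these data known. Named genes are the 5, those past the threshold in a list, the 4 of smallest p per list (fewer for the germ-layer lists, given by medians), and the 3 of nearest ratios per gene. Fgf5, Klf4, Nanog, Cer1, Hhex, Lhx1, Ngfr and Twist1 were named after their values were seen. The values of 1 listed epiblast gene are not reported here.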

Additional observations from a re-analysis of the deposited data

How the results depend on the processing

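All 5 genes kept a ratio above 0 under every alternative run, and neither Otx2 nor Sall4 passed the threshold in any of them. Slc7a3 no longer passed with extreme-background spots kept (2.43), in the authors' deposited values (2.46), with median centring (2.29), with no filter on dim probes or with both channels above background (2.61 in both), and ran from 2.55 to 2.70 with 1 replicate left out. Foxd3 passed with no background correction (3.17), Agilent processed signals (3.77), scaling between arrays (3.002), a dye term (2.79) and unpaired channels without the replicate block (3.01), and ran from 2.78 to 3.44 with 1 replicate left out. It has no value with both channels above background, since 1 wild type array was dim. Pou3f1 passed with no background correction (2.29), processed signals (2.43), scaling (2.24), a dye term (2.24) and the mean over probes (2.25), and ran from 2.16 to 2.32 with 1 replicate left out. Of the 5 genes 0 passed with extreme spots kept, in the authors' values, with median centring, with no dim filter and with both channels above background, 3 with no background correction, processed signals, scaling and a dye term, 2 with unpaired channels (no replicate block) and the mean over probes, and 0 to 3 with 1 replicate left out. Of the other epiblast genes, none of which passed as reported, 2 passed with no background correction, 3 with processed signals, 1 with scaling, 18 with a dye term, 3 with unpaired channels, and 0 to 19 with 1 replicate left out. Of all genes, 46 as reported, 0 passed with extreme spots kept and 0 in the authors' values (1684 and 3057 had unadjusted p-values under 0.05), 161 with no background correction, 429 with processed signals, 7 with median centring, 109 with scaling, 2 with no dim filter, 4 with both channels above background, 4747 with a dye term, 274 with unpaired channels, 71 with the mean over probes, and 5 to 7305 with 1 replicate left out. Genes higher in the mutant were 69.6% of those called, 57.1% with median centring, 57.8% with scaling and 51.6% with a dye term. The cause of these shifts was not tested, except that adding a dye term and dropping replicate 2 both take their error from 2 arrays of 1 dye orientation. The values of listed genes and lists without replicate 2 were added after seeing the data.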
